A study of Danio rerio with 24 samples.

Results

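Transcripts of whole zebrafish embryos were measured 24 h after ultraviolet B (UVB) to compare how 2 genotypes answered it: wild type, and embryos labelled Meevs, for a maternal mutant of the gene eevs. The comparison is a genotype by UVB interaction: the log2 UVB effect in Meevs (UVB against mock) minus the log2 UVB effect in wild type. It compares the 12 libraries collected at 24 h, of 24 in the series. They form 4 groups of 3: wild type mock, wild type UVB, Meevs mock and Meevs UVB. The filter, the scaling and the spread behind each p-value came from a fit of all 24 libraries. The groups were taken from the sample labels, and the direction of the difference is Meevs minus wild type throughout. A difference of 1 means that the UVB fold change in Meevs was 2 times that in wild type.

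Embryos of all 4 groups were raised at 28.5 °C without light, received a UVB dose of 450 J (the labels give no area) or a mock exposure at 24 h post fertilisation (hpf), returned to the dark, and were collected at 48 hpf. The name Meevs refers to the mother's genotype. What the mutation is, which alleles the embryos themselves carry and how many embryos made a library are not in the labels. Nor do they tell whether replicates came from different clutches, and a p-value here therefore covers the spread among these libraries alone, part of which may be technical. All wild type libraries carry 1 series name and all Meevs libraries another, so genotype and library series cannot be told apart. The interaction is a difference of 2 effects that were each measured within a series.

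As background, the enzyme made from eevs takes the first step towards gadusol, which absorbs UVB and is laid down in fish eggs by the mother. UVB damages DNA and proteins in the outer cell layers, and the embryo's skin at this age consists of an outer periderm and an inner layer of basal keratinocytes resting on a basement membrane. Damaged epithelium is known to raise p53 targets, AP-1 transcription factors, cytokine signalling through Jak and Stat3, matrix-cutting proteases and, in the liver, acute phase and complement proteins.

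Total counts lay between 22395870 and 38286878 per library, and the filter on low counts kept 22340 of 23219 genes for testing. On the principal components of log2 CPM (CPM are counts scaled by library size), the first component held 53.1% of the variance and separated the genotypes, and the second held 17.7% and separated mock from UVB libraries. The 3 Meevs UVB libraries were spread on the third component (10.7, -33.7 and 29), where all other libraries lay between -5.08 and 4.40. Wild type UVB replicate 1, placed apart in earlier results of these data, was at 1.10 there, with replicates 2 and 3 at -5.08 and -2.83. On the fourth component, which held 4.06% of the variance, replicate 1 was at 1.49 and replicates 2 and 3 at -15.3 and -12.9. No 2 replicates agreed within sampling noise, so each was counted as 1. The mismatch of raw counts (chi-square per degree of freedom) was largest for Meevs mock replicate 2, at 19.1 and 21.5 against replicates 1 and 3. It was 4.47 between those replicates 1 and 3, and 5.37 to 15.3 between replicates of the other groups. Meevs mock replicate 2 also had the highest total count. All 25 tissue lists had members with counts, and none of their members in the table was at 0 in all 12 libraries. The targeted gene eevs was read at 0.645, 0.794 and 0.697 CPM in wild type mock, 0.418, 0.317 and 0.473 in wild type UVB, 2.99, 1.51 and 3.08 in Meevs mock and 0.490, 0.801 and 0.697 in Meevs UVB libraries. Its interaction was not called (-1.09 ± 0.44, adjusted p = 0.246), and neither was that of zgc:113054, the gene of the second enzyme of gadusol synthesis (-0.26 ± 0.14, adjusted p = 0.442). Since a maternal mutant embryo may itself carry an intact allele, the eevs level checks no label.

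The genes with more positive UVB effects in Meevs included 12 of 38 tested complement genes and 21 of 74 of Stat3 and wound signalling. They also included 7 of 35 matrix proteases and inhibitors, 8 of 54 p53 targets and the small heat shock genes hspb1, hspb9 and hspb11. Over the alternatives the 4 list counts ran from 9 to 15, 16 to 23, 5 to 7 and 7 to 9, in that order. Some of these genes were in more than 1 list. Those with more negative effects included the 3 actinodin genes of the larval fin fold, from a list of 42 tested. They also included 6 of 47 tested genes of cartilage and bone, 9 of 76 of collagen and other matrix and 3 of 50 of photoreceptors. Over the alternatives the last 3 counts ran from 2 to 9, 4 to 12 and 1 to 5, in that order. Among called genes with an established symbol and a mean of at least 1 log2 CPM, the group from which the 15 highest and 15 lowest genes were taken, the highest difference was that of cbx7a (3.45 ± 0.30, adjusted p = 4.42e-08), a Polycomb chromobox gene, and the lowest that of and3 (-2.73 ± 0.22, adjusted p = 1.86e-08), an actinodin of the fin fold. With edgeR's quasi-likelihood test and an adjusted p under 0.05 over all genes, 536 of 22340 genes were called (2.40%), 371 of them higher (1.66%) and 165 lower (0.739%). Of these, 133 were higher and 56 lower by at least 1 on the log2 scale. Between the lowest and highest count over all alternatives, the number of called genes ran from 355 to 740, and it was 372 without wild type UVB replicate 1 and Meevs UVB replicate 3, which earlier results of these data had placed apart. The count was 355 without wild type UVB replicate 3. The 536 genes kept the sign of their difference under every alternative in which they were tested (535 of 535 with only the 12 libraries at 24 h, 536 of 536 under the other 17).

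The UVB effects behind these calls were mostly of Meevs. In the same fit UVB changed 4552 genes in Meevs (20.4%), 2578 upward (11.5%) and 1974 downward (8.84%). In wild type it changed 501 (2.24%), 388 upward (1.74%) and 113 downward (0.506%). The interaction is built from these effects, so their calls within it are a description. Of the 371 higher genes, 102 rose in both genotypes and 267 rose in Meevs without being called in wild type. Of the 165 lower genes, 28 fell in both and 129 fell in Meevs without being called in wild type. The median UVB effect of the higher genes was 1.08 in Meevs and 0.23 in wild type, and that of the lower genes was -0.89 and -0.08. Opposite calls were rare: hspb9 rose in Meevs and fell in wild type, and slc6a11a and 1 gene with a placeholder symbol fell in Meevs and rose in wild type.

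A difference of effects can also come from unequal mock levels. Between the genotypes, 11771 genes were called in mock embryos (52.7%; 26.5% higher and 26.2% lower in Meevs) and 12476 in UVB embryos (55.8%; 28.5% higher and 27.4% lower). Of the 371 higher genes, 66 were lower in Meevs in mock embryos, 111 were higher and 194 were not called, while 335 were higher in Meevs in UVB embryos. Of the 165 lower genes, 57 were higher in Meevs in mock embryos and 135 were lower in UVB embryos. For 33 of the higher and 29 of the lower genes, the genotypes differed in mock embryos and were not called as different after UVB. Below, levels in all 4 groups or the mock difference are given for part of the genes, and where neither is printed nothing is said of mock levels.

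**Figure D1:**
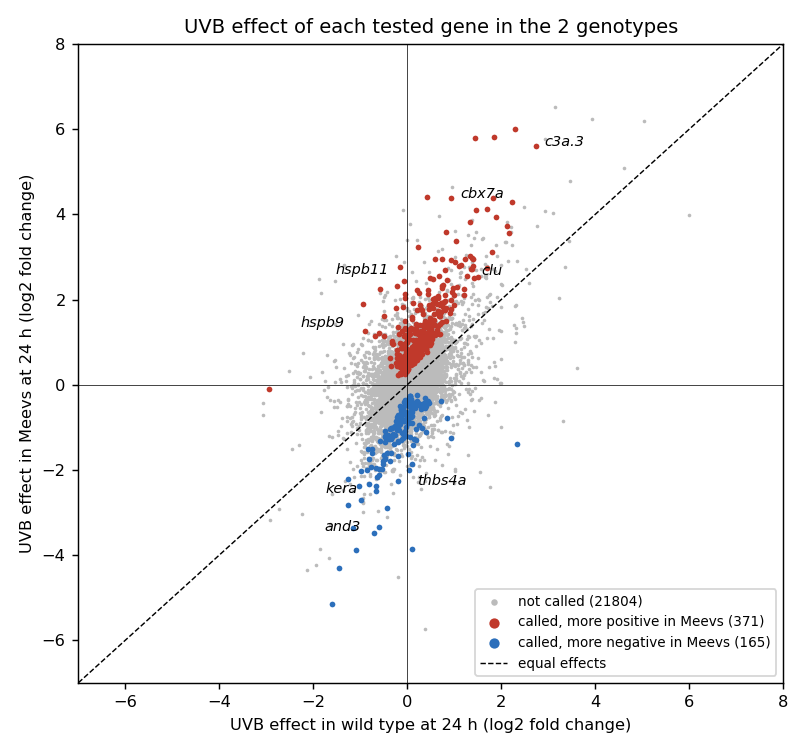
Log2 UVB effect of each tested gene at 24 h in wild type (horizontal axis) and in Meevs (vertical axis), with the 371 genes called more positive in Meevs in red, the 165 called more negative in blue, the rest in grey, and a dashed line where both effects are equal. Most red points stand well above 0 on the vertical axis and near 0 on the horizontal one (medians 1.08 and 0.23).

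Gene lists for 25 tissues and 21 functions were read by their counts of called members beside the share of all tested genes. The lists with the largest shares of higher members were complement (31.6%), Stat3 and wound (28.4%) and matrix metalloproteinases and their inhibitors (20%), against 1.66% of all tested genes. The largest shares of lower members were those of cartilage and bone (12.8%), collagen and matrix (11.8%) and basal keratinocytes (10.3%), against 0.739%. Basal keratinocytes had a larger share of higher members (12.8%) and a positive median difference (0.12). The median difference over all tested genes was 0.0019. No test of a list as a whole was made, and lists share members. They were chosen with earlier results of these data known, and the part of that choice in the shares was not tested. Single called members of a list often lost their call when 1 library was left out. Members of a list named below beyond its first 4 by adjusted p were chosen after their values were seen.

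**Figure D2:**
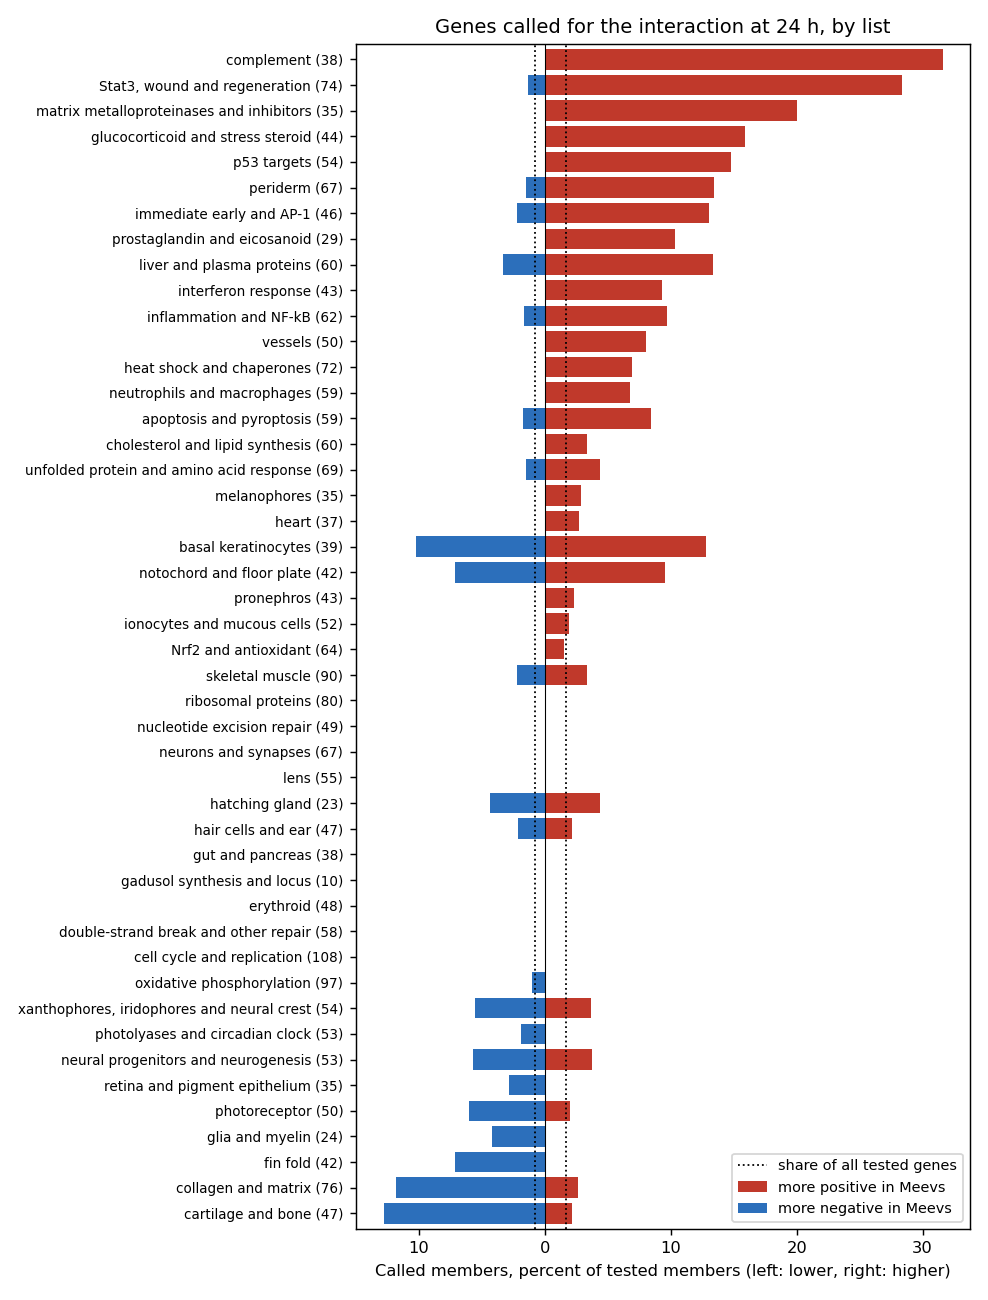
Share of each list's tested members (number in brackets) called for the interaction at 24 h, higher to the right and lower to the left, with dotted lines at the shares of all tested genes (1.66% and 0.739%). Complement reaches 31.6% on the right, cartilage and bone 12.8% on the left, and 9 lists, such as lens and cell cycle, have no called member.

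Complement genes formed the list with the largest share of calls. Of 38 tested members (47 listed), 12 were higher, none was lower, and the median difference was 0.56, with median UVB effects of 1.02 in Meevs and 0.47 in wild type. The gene clu (ENSDARG00000010434, chromosome 20, 39260475 to 39273987, GRCz11) encodes clusterin, a secreted chaperone that restrains the terminal complement complex. Its levels were 12, 13.4 and 12.3 CPM in wild type mock and 32.6, 36.2 and 29.2 in wild type UVB libraries. In Meevs they were 17.7, 17.7 and 16.6 CPM in mock and 129.9, 132 and 145 in UVB libraries. All 3 Meevs UVB libraries lay above every other library, and UVB raised clu in both genotypes (log2 2.97 ± 0.09 in Meevs and 1.38 ± 0.09 in wild type), with a difference of 1.59 ± 0.12, adjusted p = 6.59e-09. The terminal component gene c6, whose symbol belongs to 2 gene identifiers of the table, averaged 10.6 ± 0.864 CPM in wild type mock, 27.3 ± 3.07 in wild type UVB, 12.6 ± 1.31 in Meevs mock and 82.4 ± 1.52 in Meevs UVB libraries (mean ± SD, n = 3; difference 1.35 ± 0.14, adjusted p = 4.52e-07). Genes of the classical and alternative pathways were called as well, c4b with 1.39 ± 0.18 and cfb with 1.08 ± 0.18, and so were the pore-forming components c7a (1.0 ± 0.13) and c9 (0.73 ± 0.15).

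The called C3 genes on chromosome 1 had lower mock levels in Meevs than in wild type. The gene c3a.3 (ENSDARG00000052207, chromosome 1, 56274613 to 56320569) had 7.34, 5.4 and 9.76 CPM in wild type mock and 1.91, 0.971 and 0.912 in Meevs mock libraries. After UVB the levels were 55.2, 56.7 and 37.3 CPM in wild type and 57.1, 51.8 and 71.7 in Meevs, so the UVB groups overlapped while the mock groups did not. Its difference of 2.87 ± 0.36 (adjusted p = 1.61e-05) stands beside a log2 mock difference of -2.59 between Meevs and wild type. The part of mock levels in the difference was not tested. The neighbouring c3a.1 and c3a.6 were also lower in Meevs mock embryos (log2 -0.88 and -0.94) and had differences of 1.23 ± 0.20 and 1.38 ± 0.21. These neighbours are similar in sequence, and no source used here says how reads were split between them.

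Liver and plasma protein genes went both ways, with 8 of 60 tested members higher and 2 lower (median difference 0.04). The 8 became 5 without Meevs UVB replicate 3 and also 5 without both libraries placed apart. The fibrinogen chain genes, which encode the clotting protein of plasma, were called together. The gamma chain gene fgg had 103, 133 and 121 CPM in wild type mock, 143, 139.6 and 116 in wild type UVB, 146, 126 and 149 in Meevs mock and 296, 323 and 365 in Meevs UVB libraries. The 3 groups other than Meevs UVB overlapped, and the difference was 1.06 ± 0.17, adjusted p = 4.62e-04. The beta chain gene fgb had 0.99 ± 0.17 and the alpha chain gene fga 0.78 ± 0.16. Outside the list, angiotensinogen, encoded by agt, was low and uneven, with 11.2, 4.24 and 5.11 CPM in Meevs UVB libraries against 2.24, 1.07 and 0.826 in Meevs mock (difference 2.53 ± 0.47, adjusted p = 0.00219). The list's lower members were rbp4 (-0.91 ± 0.14, adjusted p = 3.12e-04), the plasma carrier of retinol, and gc, the vitamin D binding protein. The call of gc was lost when any 1 of 10 libraries was left out, and without both libraries placed apart its difference was -1.26 (adjusted p = 0.216).

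Signalling through Stat3 and genes of wound repair followed. Of 74 tested members (80 listed), 21 were higher and 1, lgals1l1, was lower. The median difference was 0.32, with median UVB effects of 0.46 in Meevs and 0.16 in wild type. The chain from receptor to feedback was represented: il6st, the shared signalling receptor of interleukin 6 cytokines, had 0.96 ± 0.13, the receptor gene lifrb 1.55 ± 0.22, the kinase gene jak1 0.56 ± 0.11 and stat3 itself 1.02 ± 0.14. The feedback inhibitor socs3b (ENSDARG00000026611, chromosome 12, 34258139 to 34277465) had 12.5, 11.5 and 12.2 CPM in wild type mock and 22.2, 20.8 and 17.1 in wild type UVB libraries. In Meevs its levels were 15.5, 14.6 and 15.9 CPM in mock and 79.5, 72 and 70.9 in UVB libraries. The Meevs UVB libraries stood above all others, and the difference was 1.54 ± 0.13, adjusted p = 1.86e-08. Its paralog socs3a rose in wild type (log2 1.79 ± 0.14) and further in Meevs (3.12 ± 0.13), with a difference of 1.33 ± 0.19, adjusted p = 1.31e-04. For il6st and stat3 mock levels were lower in Meevs (log2 -0.65 and -0.68). Annexin and fibronectin genes of repairing epithelium, anxa2a and fn1b, had 1.16 ± 0.10 and 1.02 ± 0.21.

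AP-1 subunits and early response genes had 6 higher members of 46 tested and 1 lower (median difference 0.06). The Jun family gene junba had 4.46, 4.42 and 3.74 CPM in wild type mock, 8.09, 6.1 and 5.82 in wild type UVB, 3.74, 4.68 and 4.87 in Meevs mock and 30, 22.7 and 24.9 in Meevs UVB libraries. All 3 Meevs UVB libraries stood above the rest, and the difference was 1.88 ± 0.20, adjusted p = 8.46e-07. Its relatives junbb (0.88 ± 0.16) and the Fos family genes fosl2 (1.22 ± 0.18) and fosl1a (1.60 ± 0.35) were called too. The call of fosl1a was lost without wild type mock replicate 1 (1.36, adjusted p = 0.083) and without Meevs mock replicate 2 (1.28, adjusted p = 0.054). The lower member was npas4a, a transcription factor of active neurons (-1.33 ± 0.34), whose call was lost when any 1 of 7 libraries was left out and without both libraries placed apart, with an adjusted p of up to 0.079.

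Inflammation and NF-kB genes had 6 higher members of 62 tested and 1 lower (median difference 0.33), and the 6 became 3 without Meevs mock replicate 2 and 11 in DESeq2. The cytokine receptor gene il4r.1 had 6.98, 7.35 and 6.87 CPM in Meevs UVB libraries against 2.28, 1.48 and 1.56 in Meevs mock, and 3.47, 3.22 and 2.90 against 2.07, 2.19 and 2.31 in wild type (difference 1.45 ± 0.24, adjusted p = 4.62e-04). The lower member, duox, encodes the oxidase that makes hydrogen peroxide at wounds in zebrafish. It fell in Meevs (log2 -1.27 ± 0.23) and was not called in wild type (0.14 ± 0.20, adjusted p = 0.85), with a difference of -1.41 ± 0.31, adjusted p = 0.00992. Without Meevs mock replicate 2 the duox call was lost (-1.18, adjusted p = 0.050). Among 29 prostaglandin genes 3 were higher, namely ptgdsb.1 (0.99 ± 0.17), ptgs2a (0.58 ± 0.13) and ptgis (0.80 ± 0.19), which encode synthases of prostaglandins and prostacyclin. The 3 became 5 in DESeq2 and 5 with a replicate block. The call of ptgis was lost without both libraries placed apart and without any one of wild type mock replicate 1 or 2, wild type UVB replicate 2, Meevs UVB replicate 3 or Meevs mock replicate 2, with an adjusted p of up to 0.084. Of 43 interferon response genes 4 were higher, isg15 (2.56 ± 0.39), irf9 (1.17 ± 0.18), irf7 (1.25 ± 0.29) and b2m (1.06 ± 0.26). The call of irf7 was lost without Meevs UVB replicate 1 (1.02, adjusted p = 0.052). The call of b2m was lost without any one of wild type mock replicate 2 or 3, wild type UVB replicate 2 or 3, Meevs UVB replicate 2 or Meevs mock replicate 3, with an adjusted p of up to 0.096. The ubiquitin-like isg15 was low in every group, at 8.57, 8.95 and 9.10 CPM in Meevs UVB and 1.23, 1.47 and 0.946 in wild type UVB libraries.

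Markers of neutrophils and macrophages were called in 4 of 59 cases, all higher, and their median difference was -0.02. These were nccrp1 (0.61 ± 0.09), mcl1a (0.46 ± 0.09), mmp13a and ms4a17a.1, and mmp13a and mcl1a also belong to other lists. Their summed level was 790.2 to 863 CPM in Meevs UVB and 629.9 to 708 in Meevs mock libraries, and 625 to 649 in wild type UVB and 523 to 567 in wild type mock libraries. Without the 4 called members the sums were 581 to 669 CPM in Meevs UVB and 528 to 604 in Meevs mock libraries, which overlapped. In wild type they were 545 to 567 CPM in UVB and 458 to 499 in mock libraries, which did not overlap. The 4 were left out for their interaction calls, so these sums are no test of it. In whole embryos, a change in the number of cells of a type and a change in RNA per cell cannot be told apart. The part of these cells in the inflammatory calls was not tested.

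Proteases that cut the extracellular matrix and their inhibitors had 7 higher members of 35 tested and none lower (median difference 0.29). The gelatinase gene mmp9 (ENSDARG00000042816, chromosome 8, 24281512 to 24295947) had 3.95, 3.78 and 4.59 CPM in wild type mock and 19.4, 20.6 and 15.2 in wild type UVB libraries. In Meevs it had 7.10, 7.26 and 6.82 CPM in mock and 104, 73.1 and 71.6 in UVB libraries. UVB raised it in both genotypes, without overlap between mock and UVB libraries, and the difference was 1.39 ± 0.20, adjusted p = 8.80e-05. The inhibitor gene timp2b had 1.41 ± 0.16 and the membrane proteases adam8a and adam8b 0.93 ± 0.14 and 1.31 ± 0.21. Collagenase gene mmp13a, whose symbol also belongs to 2 identifiers, was uneven, with 83.5, 20.9 and 22.9 CPM in Meevs UVB libraries, so replicate 1 stood far above the other replicates. Its difference of 2.48 ± 0.53 lost its call when only the 12 libraries at 24 h were fitted (adjusted p = 0.053), and without Meevs UVB replicate 1 the value was 1.53, the lowest over the alternatives.

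**Figure D3:**
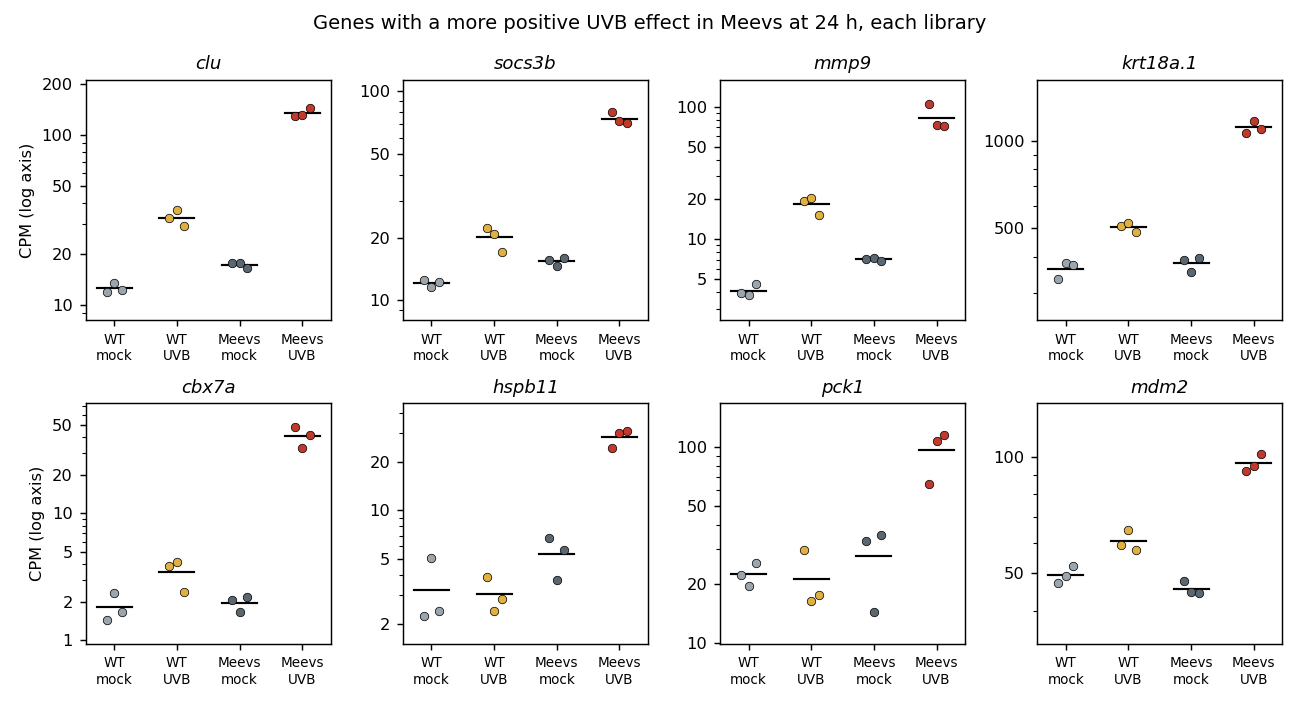
CPM (log axis) of 8 genes with more positive UVB effects in Meevs, each point 1 library and each bar a group mean (n = 3). For clu, socs3b, mmp9, krt18a.1, cbx7a, hspb11, pck1 and mdm2 the 3 Meevs UVB libraries lie above the other 9.

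In the epidermis the called periderm markers were mostly higher, and the called basal keratinocyte genes went both ways. Of 67 periderm markers 9 were higher and 1, fut9d, was lower (median difference 0.10), and the 9 became 5 without Meevs UVB replicate 2 and 5 without Meevs mock replicate 2. The simple keratin gene krt18a.1 (ENSDARG00000018404, chromosome 23, 10347851 to 10351754) had 334, 380.1 and 374 CPM in wild type mock, 509, 522 and 486 in wild type UVB, 389, 353 and 395 in Meevs mock and 1071, 1178 and 1107 in Meevs UVB libraries. The mock groups overlapped and the Meevs UVB libraries stood above all others (difference 1.08 ± 0.11, adjusted p = 3.54e-07). Its partner keratin gene krt8 had 0.68 ± 0.11, and the tight junction gene cldnb 0.44 ± 0.11. Summed over the list, periderm markers read 23510.3 to 31432 CPM in Meevs UVB and 29069.6 to 33500.1 in Meevs mock libraries, against 22378 to 25448 and 27717 to 28978 in wild type, so the Meevs UVB range overlapped that of every other group.

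Basal keratinocyte genes split evenly, with 5 of 39 tested members higher and 4 lower (median difference 0.12). The anchoring genes col17a1a and col7a1 were on the lower side. The gene col17a1a, which encodes the hemidesmosomal collagen XVII, had 193, 177 and 178 CPM in wild type mock, 137, 118 and 129 in wild type UVB, 176, 155 and 186 in Meevs mock and 38.6, 61.1 and 50.2 in Meevs UVB libraries. Mock levels overlapped, and the fall was deeper in Meevs (difference -1.27 ± 0.17, adjusted p = 3.33e-05). The anchoring fibril gene col7a1 fell in Meevs (log2 -0.89 ± 0.13) and was not called in wild type (0.10 ± 0.13, adjusted p = 0.826; difference -0.99 ± 0.19, adjusted p = 0.00219). The basal keratin gene krtt1c19e had -0.92 ± 0.18 from a mock level that was higher in Meevs (log2 0.76). On the higher side, the adhesion gene cdh1 (0.42 ± 0.09) and spint1b (0.56 ± 0.11), the gene of a protease inhibitor of epithelia, had positive differences.

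Genes of the larval fin fold were among the 15 lowest. The 3 actinodins, and1, and2 and and3, encode structural proteins of actinotrichia, the unmineralised fibres that stiffen the fin fold in fish. The gene and3 (ENSDARG00000056873, chromosome 10, 22848556 to 22854758) had 109, 108 and 108 CPM in wild type mock and 66.1, 67.1 and 80.3 in wild type UVB libraries. In Meevs it had 168, 128 and 155 CPM in mock and 14.2, 17.6 and 13.1 in UVB libraries. Every Meevs UVB library lay far below all others, while wild type UVB lay modestly below wild type mock (log2 -0.61 ± 0.15 against -3.34 ± 0.17 in Meevs). The gene and2 went from 610.3, 506 and 565 to 94.3, 111 and 93 CPM in Meevs and from 447, 443 and 432 to 267, 272 and 299 in wild type (difference -1.84 ± 0.19, adjusted p = 4.15e-07). For and1, wild type levels were 396, 385 and 376 CPM in mock and 389.7, 410.3 and 406 after UVB, a change that was not called (adjusted p = 0.896), while Meevs went from 488, 374 and 439 to 169.6, 218 and 165 (difference -1.30 ± 0.17, adjusted p = 2.46e-05). Mock levels were higher in Meevs for and2 and and3 (log2 0.35 and 0.48). These 3 were the only called members of the 42 tested in the fin fold list, whose median difference was -0.05, and the list's summed level was 1830.2 to 1991 CPM in Meevs UVB against 2603 to 2984 in Meevs mock libraries. Without the 3 actinodins the other 39 members summed to 1552 to 1665 CPM in Meevs UVB and 1595 to 1807 in Meevs mock libraries, which overlapped. The gap in the full sum in Meevs was therefore mostly that of the actinodins. In wild type the full sums overlapped, at 2868 to 2962 CPM in UVB and 2896 to 2982 in mock libraries. There the other 39 members did not overlap, and were higher in UVB (2119 to 2191 CPM) than in mock libraries (1980 to 2029).

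Skeletal and connective tissue genes were lower as well. Of 47 cartilage and bone genes 6 were lower and 1, ctsk, was higher (median difference -0.27). The 6 became 3 without any one of wild type mock replicate 2 or 3, wild type UVB replicate 1 or 3, Meevs UVB replicate 1 or 3, or Meevs mock replicate 2, and 2 without both libraries placed apart. Collagen X gene col10a1a, of hypertrophic cartilage and forming bone, had 32.9, 24.8 and 29 CPM in wild type mock, 23.6, 15.1 and 16.3 in wild type UVB, 50.3, 50.7 and 39.7 in Meevs mock and 7.88, 13 and 10.8 in Meevs UVB libraries. It began higher and ended lower in Meevs (log2 mock difference 0.70, interaction -1.51 ± 0.23, adjusted p = 1.77e-04). The gene entpd5a, which zebrafish need for bone mineralisation, had -1.53 ± 0.34 at 0.939 to 6.31 CPM, and its call was lost without both libraries placed apart (-1.38, adjusted p = 0.089). The cartilage collagen gene col11a1a had -0.73 ± 0.13, with UVB called in Meevs and not in wild type (adjusted p = 0.845).

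In the wider matrix list, 9 of 76 tested members were lower and 2, bgnb and fn1a, were higher (median difference -0.19), and the 9 became 4 without wild type UVB replicate 3. The 2 became 0 without wild type mock replicate 1, without Meevs mock replicate 1, with a replicate block and without both libraries placed apart, and 1 without any one of 8 other libraries. Outside that list, keratocan, encoded by kera (ENSDARG00000056938, chromosome 4, 16337156 to 16345227), is a small proteoglycan of the cornea. Its levels were 74.6, 73.6 and 74.9 CPM in wild type mock and 43.8, 47 and 50.6 in wild type UVB libraries, and 54.3, 57.4 and 57 in Meevs mock and 9.51, 13.7 and 9.46 in Meevs UVB libraries. Mock and UVB libraries did not overlap in either genotype, and the fall was deeper in Meevs (difference -1.72 ± 0.15, adjusted p = 4.46e-08). Its relative lum, for lumican, is a member of the list and had -0.70 ± 0.11. Also outside the list, the gene thbs4a, for a thrombospondin of muscle and tendon attachments, had 9.84, 9.28 and 10.6 CPM in wild type mock, 9.45, 11.3 and 9.58 in wild type UVB, 13.4, 11.6 and 11.6 in Meevs mock and 3.06, 3.86 and 2.26 in Meevs UVB libraries. Wild type levels overlapped, and the difference was -2.04 ± 0.22, adjusted p = 1.62e-06. Within the list, the main fibrillar collagen gene col1a1a had -0.71 ± 0.17, from 1931, 1322 and 2046 CPM in Meevs mock to 1038, 1184 and 1090.2 in Meevs UVB libraries. Summed, the matrix list read 7238 to 7853 CPM in Meevs UVB, 8215 to 10334 in Meevs mock, 10506 to 11036 in wild type UVB and 10297 to 10929 in wild type mock libraries. The 65 members that were not called summed to 5780.5 to 6169 CPM in Meevs UVB and 6322 to 7554 in Meevs mock libraries. In wild type they summed to 7523 to 8041 CPM in UVB and 7526 to 7943 in mock libraries.

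**Figure D4:**
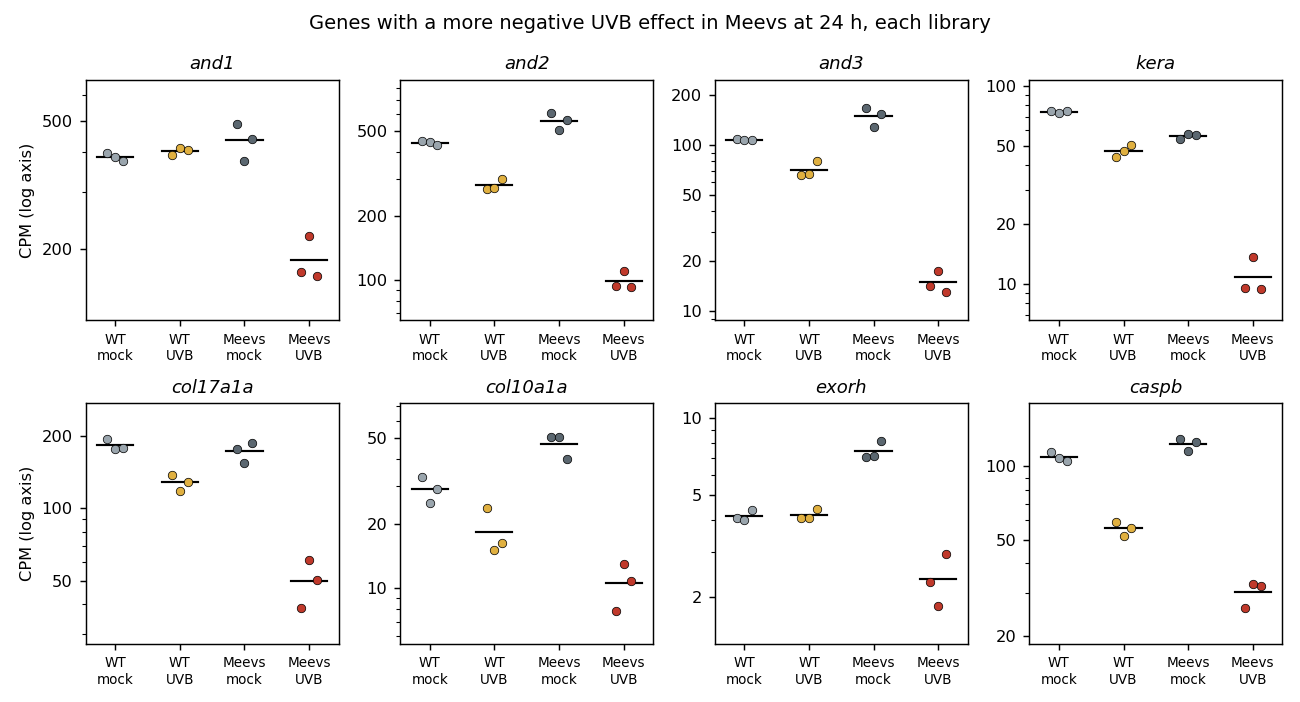
CPM (log axis) of 8 genes with more negative UVB effects in Meevs, each point 1 library and each bar a group mean (n = 3). For the actinodin genes and1, and2 and and3, and for kera, col17a1a, col10a1a, exorh and caspb, the 3 Meevs UVB libraries lie below the other 9.

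Targets of p53 had 8 higher members of 54 tested and none lower (median difference 0.10, against UVB medians of 0.29 in Meevs and 0.16 in wild type). The ubiquitin ligase gene mdm2, which restrains p53, had 47.3, 49.2 and 52.3 CPM in wild type mock, 59.2, 64.9 and 57.4 in wild type UVB, 47.7, 44.6 and 44.5 in Meevs mock and 92.1, 94.9 and 102 in Meevs UVB libraries. Its UVB effect was called in Meevs (log2 1.08 ± 0.09) and not in wild type (0.29 ± 0.09, adjusted p = 0.106), and the difference was 0.79 ± 0.13, adjusted p = 4.34e-04. The death gene bbc3, known as Puma, had 1.07 ± 0.20, the cyclin G gene ccng1 0.59 ± 0.13 and the ribosomal protein homologue rps27l 0.81 ± 0.15. The list also holds isg15 of the interferon response. Among 59 apoptosis and pyroptosis genes 5 were higher and 1 lower. The 5 became 3 without any one of wild type mock replicate 2 or 3, wild type UVB replicate 2, Meevs UVB replicate 2, or Meevs mock replicate 2 or 3. The lower member was caspb, an inflammatory caspase of zebrafish, with 115, 109 and 105 CPM in wild type mock, 59.2, 51.8 and 55.9 in wild type UVB, 129, 116 and 126 in Meevs mock and 26.2, 32.7 and 32.1 in Meevs UVB libraries. It fell in both genotypes and further in Meevs (difference -1.05 ± 0.12, adjusted p = 3.83e-06). No member was called among 49 nucleotide excision repair genes (median -0.09) or 58 genes of double-strand break and other repair (median -0.0).

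Small heat shock proteins, chaperones that bind unfolding proteins, were among the highest differences. Of 72 heat shock and chaperone genes 5 were higher and none was lower, and the list's median was 0.03. The gene hspb11 (ENSDARG00000002204, chromosome 21, 20383837 to 20384878) had 2.23, 5.12 and 2.41 CPM in wild type mock and 3.89, 2.39 and 2.84 in wild type UVB libraries, which overlapped. In Meevs it had 6.73, 3.71 and 5.69 CPM in mock and 24.2, 30.2 and 30.9 in UVB libraries (difference 2.51 ± 0.33, adjusted p = 2.89e-05). For hspb9 the effects were called in opposite directions: CPM in wild type were 11.3, 25.6 and 17.6 in mock and 11.9, 7.05 and 10.1 in UVB libraries, and Meevs went from 44, 26.8 and 30 to 62, 101 and 78.7 (log2 -0.90 ± 0.23 and 1.26 ± 0.21, difference 2.16 ± 0.31, adjusted p = 9.29e-05). Wild type mock and UVB libraries of hspb9 overlapped, with mock replicate 1 within the UVB range. Its relative hspb1 had 1.14 ± 0.17 and the co-chaperone gene bag3 0.69 ± 0.14. Among 90 skeletal muscle genes 3 were higher (txlnbb, tnni2b.1 and desma) and 2 lower (cacna1sa, a calcium channel, with -1.13 ± 0.24, and myod1), with a median of -0.07. The 3 became 6 without Meevs UVB replicate 3. The 2 became 1 without any one of wild type mock replicate 1 or 3, wild type UVB replicate 1, Meevs UVB replicate 3 or Meevs mock replicate 1, 4 without Meevs UVB replicate 1, and 0 without both libraries placed apart. Outside that list, the muscle and skeletal gene mustn1b had 1.66 ± 0.23 and igfn1.3, a muscle immunoglobulin domain gene, -1.51 ± 0.25. The sarcomere gene tcap, at 108, 136 and 80.4 CPM in Meevs UVB libraries, had 1.69 ± 0.42, and its call was lost under 7 alternatives, with a difference of 1.13 (adjusted p = 0.227) without wild type mock replicate 2.

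Genes under glucocorticoid control and of glucose production were higher in 7 of 44 cases and lower in none (median difference 0.19). The gluconeogenic enzyme gene pck1 had 22.3, 19.4 and 25.6 CPM in wild type mock, 29.6, 16.2 and 17.6 in wild type UVB, 32.8, 14.3 and 35.5 in Meevs mock and 64.6, 107 and 115 in Meevs UVB libraries. Meevs mock replicate 2 lay well below the other mock libraries, and the difference was 1.90 ± 0.40, adjusted p = 0.00714. The glucose 6-phosphatase gene g6pca.1 was steadier, from 8.41, 7.31 and 9.25 to 15.6, 21.3 and 24.7 CPM in Meevs and from 8.76, 8.2 and 8.24 to 8.57, 8.72 and 7.01 in wild type (difference 1.37 ± 0.24, adjusted p = 8.34e-04). The stress steroid co-chaperone gene fkbp5 varied within groups, at 6.15, 22.8 and 6.88 CPM in wild type mock and 35.8, 10.2 and 32.4 in Meevs mock libraries, where replicate 2 was the outlying one in both. Its difference of 2.10 ± 0.53 lost its call under 9 alternatives, and was 1.23 (adjusted p = 0.233) without wild type mock replicate 2. Of 69 genes of the unfolded protein and amino acid response 3 were higher, ddit4, ppp1r15a and atf5b, and 1, gpt2, was lower, with a median of 0.09. The 3 became 6 without Meevs UVB replicate 3 and 8 in DESeq2, and the 1 became 0 without any one of wild type mock replicate 1 or 3, wild type UVB replicate 2 or 3, Meevs UVB replicate 3 or Meevs mock replicate 3. The gene ddit4, an inhibitor of the growth kinase mTOR, had 16.3, 15.8 and 11.2 CPM in Meevs mock and 37.7, 39.8 and 24.5 in Meevs UVB libraries, against 35.2, 26.4 and 25.5 and 22.2, 18.1 and 17 in wild type. Its level was below that of wild type in Meevs mock libraries (log2 -1.0) and above it in Meevs UVB libraries, and the difference was 1.82 ± 0.24, adjusted p = 2.90e-05. The phosphatase subunit gene ppp1r15a, which restarts translation after stress, had 1.25 ± 0.19. The hypoxia-responsive ankrd37, among the 15 highest, had 1.84 ± 0.29.

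Eye and pineal genes were lower in part. Of 50 photoreceptor genes 3, rcvrnb, sagb and rho, were lower and 1, rbp4l, was higher. The list's median difference was -0.36, with UVB medians of -0.67 in Meevs and -0.35 in wild type. The 3 became 1 without any one of wild type mock replicate 2, wild type UVB replicate 1 or 3, or Meevs UVB replicate 1 or 2, and 5 in DESeq2. Outside the photoreceptor list, exorh was the 1 called member of the 53 tested in the photolyase and circadian clock list. The gene exorh (ENSDARG00000111860, chromosome 8, 54302700 to 54304381), an opsin of the pineal organ in fish, had 4.06, 4.0 and 4.37 CPM in wild type mock and 4.07, 4.09 and 4.40 in wild type UVB libraries, which overlapped. Meevs had 7.06, 7.13 and 8.17 CPM in mock and 2.29, 1.84 and 2.96 in UVB libraries, from above the wild type range to below it (difference -1.65 ± 0.22, adjusted p = 3.74e-05). Within the photoreceptor list, the recoverin gene rcvrnb of phototransduction had -1.19 ± 0.22. The call of sagb (-1.16 ± 0.29) was lost under 6 alternatives, with an adjusted p of up to 0.083. Rod opsin, encoded by rho, was low, at 7.98, 6.51 and 6.40 CPM in wild type mock and 0.898, 0.707 and 1.86 in Meevs UVB libraries, and fell in both genotypes. Its difference of -1.56 ± 0.40 lost its call under 9 alternatives, with an adjusted p of up to 0.124. Summed photoreceptor markers read 568 to 630.0 CPM in Meevs UVB and 792 to 831 in Meevs mock libraries, against 712 to 875 and 843 to 998 in wild type. No lens gene was called (55 tested, median 0.06).

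In the nervous system 3 of 53 neurogenesis genes were lower, tubb5, neurod6b and neurod6a, and 2, her9 and ascl1a, were higher (median -0.01). The 3 became 1 without wild type mock replicate 2 and 1 without wild type UVB replicate 1. The 2 became 0 without any one of wild type mock replicate 2 or 3, wild type UVB replicate 1 or 3, Meevs UVB replicate 1 or 2, or Meevs mock replicate 2 or 3. The neuronal transcription factor gene neurod6b had 29.8, 23.2 and 26.2 CPM in wild type mock, 27.1, 18.1 and 19.3 in wild type UVB, 36.3, 38.4 and 33.9 in Meevs mock and 15.3, 16.5 and 16.6 in Meevs UVB libraries. The last group lay below the others (difference -0.87 ± 0.20, adjusted p = 0.014), from a mock level that was higher in Meevs (log2 0.46). The neurod6b call was lost without wild type mock replicate 2, without wild type UVB replicate 1 and without both libraries placed apart, with an adjusted p of up to 0.074. That of tubb5 (-0.53 ± 0.09) was kept under all 18 alternatives. Of 67 neuron and synapse genes none was called for the interaction. In the UVB comparisons 33 of the 67 fell in Meevs and 1 in wild type, beside 8.84% and 0.506% of all tested genes. The list's median UVB effects were -0.30 in Meevs and -0.21 in wild type. The GABA transporter gene slc6a11a had effects called in opposite directions, with 16.2, 19.7 and 14.9 CPM in wild type mock, 21.2, 23.9 and 23.8 in wild type UVB, 16.4, 14.2 and 16.6 in Meevs mock and 10.5, 14.7 and 10.9 in Meevs UVB libraries. Its Meevs groups overlapped, and the difference was -0.83 ± 0.16, adjusted p = 0.00411.

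Vessel markers had 4 higher members of 50 and none lower (median 0.18), among them lyve1a of lymphatic and venous endothelium, at 5.47, 6.03 and 6.01 CPM in Meevs UVB and 1.64, 1.38 and 1.78 in Meevs mock libraries, against 1.28, 1.24 and 1.33 and 0.753, 1.14 and 0.919 in wild type (difference 1.42 ± 0.29, adjusted p = 0.0054). The 4 became 2 without wild type mock replicate 2, Meevs UVB replicate 1 or Meevs UVB replicate 3, and 1 without wild type UVB replicate 3 or Meevs mock replicate 3, while DESeq2 called 7. Notochord and floor plate genes had 4 higher, such as foxj1a (0.73 ± 0.15), the master gene of motile cilia, and 3 lower members of 42. The 3 became 5 without Meevs UVB replicate 2 and 1 without both libraries placed apart. The list's median difference was -0.05. All of the lower members (and2, col8a1a and entpd5a) and the higher desma also belong to the fin fold, matrix, bone or muscle lists above. Ionocyte and mucous cell genes had 1 higher member of 52, slc9a3.1 (2.04 ± 0.36), a sodium and proton exchanger. That is 1.92%, beside 1.66% of all tested genes, and the list's median difference was 0.11. In Meevs UVB libraries the list summed to 1551 to 1667 CPM with slc9a3.1 and 1548 to 1664 without it. With UVB, 13 of the 52 fell and 12 rose in Meevs, beside 8.84% and 11.5% of all tested genes. In wild type 10 fell and 0 rose, beside 0.506% and 1.74%. No gene was called among 108 of the cell cycle (median -0.02), 80 ribosomal protein genes (median 0.13), 48 erythroid genes, 38 gut and pancreas genes or the 10 genes of the gadusol locus. For the cell cycle list, 26 of the 108 members rose in Meevs and 3 in wild type, beside 11.5% and 1.74% of all tested genes. The list's median UVB effects were close, at 0.17 in Meevs and 0.19 in wild type.

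The gene cbx7a (ENSDARG00000038025, chromosome 3, 24986145 to 24994617), which encodes a chromobox protein of the Polycomb repressive complex, had 1.45, 2.35 and 1.68 CPM in wild type mock and 3.84, 4.17 and 2.39 in wild type UVB libraries. In Meevs it had 2.09, 1.66 and 2.17 CPM in mock and 47.6, 33 and 41.4 in UVB libraries. Mock levels overlapped between the genotypes, and UVB raised it by log2 4.39 ± 0.20 in Meevs and 0.94 ± 0.22 in wild type. The serine protease gene tmprss3a also stood among the 15 highest (2.0 ± 0.41), from 0.897, 1.33 and 1.09 to 9.67, 8.58 and 7.37 CPM in Meevs. Among the 15 lowest was aglb, for glycogen debranching enzyme, at 9.46, 7.21 and 12.9 CPM in Meevs mock and 2.53, 2.69 and 2.79 in Meevs UVB libraries (difference -1.34 ± 0.28, adjusted p = 0.00601). Of the 536 called genes, 86 have only a placeholder symbol. These include si:dkey-183i3.5, named here after its values were seen, which went from 245, 202 and 236 to 5.88, 9.38 and 4.42 CPM in Meevs and from 135, 112 and 119 to 36.8, 38.4 and 44.7 in wild type (difference -3.54 ± 0.26, adjusted p = 4.61e-09).

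The same interaction at 5 h (29 hpf) was set beside that at 24 h, and the change between them was tested in the same fit. It passed for 481 genes (2.15%), 374 with a higher (1.67%) and 107 with a lower (0.479%) difference at 24 h. Among 29 of the 15 highest and 15 lowest genes at 24 h, the change passed for 8. The gene cbx7a went from an interaction of 0.40 ± 0.37 at 5 h to 3.45 ± 0.30 at 24 h (change adjusted p = 8.91e-04), and hspb11 from -0.19 ± 0.31 to 2.51 ± 0.33 (change adjusted p = 0.00154). For the complement genes clu and c6 the interaction at 5 h was 0.13 and 0.09, and both changed (adjusted p = 5.54e-05 and 8.91e-04). The p53 targets mdm2 and bbc3 had 0.73 and 1.04 at 5 h against 0.79 and 1.07 at 24 h, and no change was called (adjusted p = 0.919 and 0.97). The actinodin gene and3 was already at -1.37 ± 0.27 at 5 h and reached -2.73 ± 0.22 (change adjusted p = 0.0343), while for and1 and and2 no change was called (adjusted p = 0.227 and 0.101).

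**Figure D5:**
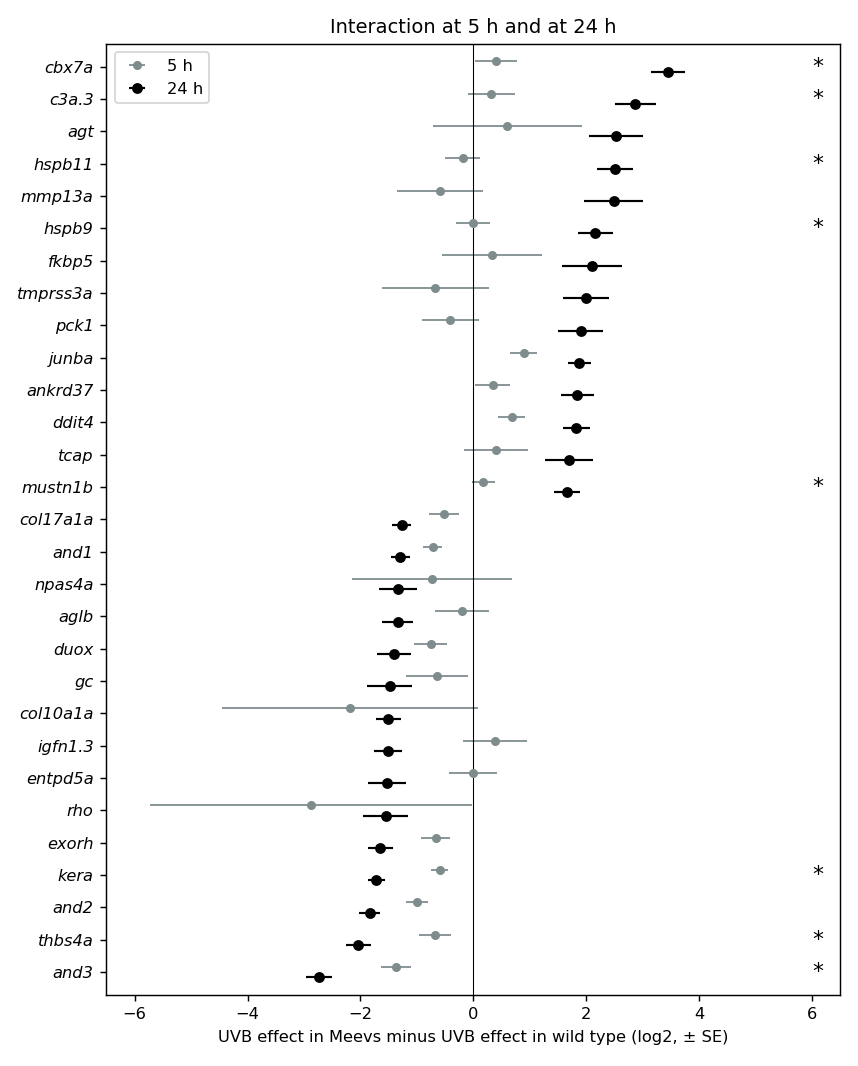
Interaction (log2 UVB effect in Meevs minus that in wild type, ± SE) at 5 h in grey and at 24 h in black for 29 of the 15 highest and 15 lowest genes at 24 h, with a star where the change between the times was called. Stars stand beside 8 genes, among them cbx7a, c3a.3 and hspb11 at the top and and3, thbs4a and kera at the bottom.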

How the data were processed

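Raw counts of reads per gene, whole numbers with no scaling, were deposited by the authors. The submitters' processing notes name STAR 2.7.9a, cutadapt 1.16, DESeq2 1.36.0, featureCounts 1.6.3 and the build GRCz11, with no settings. Whether strand was used in counting is not stated, so overlapping antisense genes are uncertain. Per the labels, RNA was extracted with Trizol and polyA-selected directional libraries were made.

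Columns were matched to samples by name and samples grouped by their labels. All 24 libraries were scaled with TMM, filtered with filterByExpr by group (22340 genes stayed) and fitted with 1 mean per group (8 groups of 3) in edgeR 4.0.16 (R 4.3.3). Each contrast had a quasi-likelihood F-test and was called at a Benjamini-Hochberg adjusted p under 0.05. The SE was taken as the log2 difference over the root of its F value. Levels are CPM on TMM library sizes, with a prior count of 2 for log2 values. Total counts at 24 h were 22395870 to 38286878.

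The comparison, the 46 gene lists (2745 members, 2450 matched by symbol) and the rule for named genes were chosen with earlier results of these data known. Named genes were the 15 highest and 15 lowest calls that had an established symbol and averaged 1 log2 CPM or more at 24 h, up to 4 called members per list by adjusted p, genes with UVB effects called in opposite directions, and the gadusol genes. Others were chosen after their values were seen.

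Alternatives were DESeq2 size factors, no filter, DESeq2 1.42.0, only the 12 libraries at 24 h, a replicate block, and leaving out libraries, 18 in all. The test was tried on simulated counts first. Intervals and SEs cover these libraries only. Some genes that the rule names are not reported here. No sequence is shown.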

Additional observations from a re-analysis of the deposited data

Results flagged for a closer look

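Among 29 of the 15 highest and 15 lowest genes, the interaction differed between 5 h and 24 h for 8 by a test of that change (edgeR, adjusted p under 0.05). For 5 genes it was higher at 24 h than at 5 h, by 3.05 for cbx7a, 2.70 for hspb11, 2.55 for c3a.3, 2.16 for hspb9 and 1.49 for mustn1b on the log2 scale. For 3 genes it was lower, by -1.37 for and3, -1.35 for thbs4a and -1.12 for kera. At 5 h the embryos were 29 hpf and at 24 h 48 hpf, so time after UVB and stage cannot be told apart.

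The UVB effects of 2 genes with an established symbol were called in opposite directions in the genotypes (a further called gene has a placeholder symbol), with an interaction of 2.16 for hspb9 and -0.83 for slc6a11a.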

How the results depend on the processing

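The 536 interaction calls (371 higher, 165 lower) became 561 with DESeq2 size factors, 529 without a filter, 740 in DESeq2, 590 with only the 12 libraries at 24 h and 372 without wild type UVB replicate 1 and Meevs UVB replicate 3. With a replicate block they were 502 (347 higher, 155 lower), of which 451 were among the 536. Deviations of same-numbered mock and UVB libraries correlated at 0.06 to 0.11 in wild type, above those of differently numbered ones (-0.07 to 0.004). In Meevs the 2 ranges overlapped (-0.04 to 0.07 and -0.07 to 0.08). Whether same-numbered libraries belong together was not tested. Leaving out each library at 24 h gave 355 to 472 calls, 241 to 340 higher and 114 to 171 lower, with the lowest total without wild type UVB replicate 3. With 1 library left out, UVB calls in Meevs (4552) ran from 3440 to 4613 and in wild type (501) from 274 to 745. The count of 3440 was without Meevs mock replicate 2. Meevs calls were 4748 with DESeq2 size factors, 4870 in DESeq2 and 4894 with only the 12 libraries at 24 h. Wild type calls were 777 without both libraries. Calls for the change between times (481) ran from 316 to 595 and were 842 in DESeq2. The causes were not tested. No called gene changed sign. Of 121 called named genes, 84 kept their call under all 18 alternatives and 37 lost it under at least 1. Depth limits genes of few counts, such as agt and hce2l2.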

Other observations

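The families below were chosen after their values were seen. All but 1 of their members are outside the lists, the exception being ms4a17a.1 of the neutrophil and macrophage list. Of the 13 ms4a17a genes, neighbouring copies whose reads could be shared, 7 were higher in the interaction (median difference 1.81, median UVB effects 2.10 in Meevs and 1.0 in wild type). The member ms4a17a.2 had 0.242, 0.286 and 0.190 CPM in wild type mock, 1.10, 0.691 and 0.828 in wild type UVB, 0.224, 0.281 and 0.130 in Meevs mock and 12.6, 13.1 and 12.9 in Meevs UVB libraries (difference 3.97 ± 0.49, adjusted p = 1.57e-05). Of the 6 tmem176 genes 5 were higher, with a median of 0.64. Arrestin domain genes, which include the glucose-responsive txnipa, were higher in 4 of 7 cases. The gene txnipa had 225, 215 and 225 CPM in Meevs mock and 363, 478 and 369 in Meevs UVB libraries, against 225, 225 and 212 and 217, 210.4 and 218 in wild type (0.90 ± 0.12, adjusted p = 4.08e-05). Of 6 pfkfb genes, which set the rate of glycolysis, 2 were higher, led by pfkfb3 (1.23 ± 0.20, adjusted p = 3.93e-04).

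Genes of motile cilia (cfap, dnah, dnai, drc and rsph symbols) had positive differences in 38 of 43 tested cases with a median of 0.44, but 3 were called (cfap99, drc1 and DNAH10), beside 1.66% of all genes. Of the 43, 21 rose with UVB in Meevs and 1 in wild type, beside 11.5% and 1.74% of all tested genes. Of muscle genes chosen after their values were seen, xirp1 had 1.15 ± 0.17, adjusted p = 1.68e-04 and smtnl 1.07 ± 0.18, adjusted p = 6.75e-04, while both igfn1 genes were lower and the list of skeletal muscle genes had a median of -0.07. The forebrain transcription factor gene tbr1b was lower, at 26.8, 24.9 and 26.8 CPM in Meevs mock and 14.7, 12.4 and 15.9 in Meevs UVB libraries, against 28.5, 26.8 and 28.8 and 25.6, 26.8 and 27.3 in wild type (-0.78 ± 0.14, adjusted p = 9.53e-04). The hatching enzyme gene hce2l2 read 1.98, 1.74 and 2.30 CPM in Meevs mock and 0.0816, 0.188 and 0.133 in Meevs UVB libraries, against 1.51, 1.18 and 1.49 and 0.496, 0.432 and 1.03 in wild type (-2.78 ± 0.55, adjusted p = 0.00428). It was the 1 lower member of the 23 tested in the hatching gland list, whose median difference was 0.32. The 1 higher member was cd63 (0.56 ± 0.09). Summed, the list read 818 to 1018 CPM in Meevs UVB and 575 to 751 in Meevs mock libraries. In wild type it read 661 to 716 CPM in UVB and 499 to 650 in mock libraries.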
